A study of Mus musculus with 12 samples.

Results

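The green-only population was made of mouse embryonic stem cell progenitors that carried signal from a cardiac specific enhancer driving the green protein eGFP and none from a second heart field specific reporter driving the red protein dsRed. The double-negative population carried neither signal and served as its counterpart. Members were chosen by sample title: the 3 arrays titled Red-/Green+ and the 3 titled Red-/Green-, which are 6 of the 12 arrays of the series. Both populations came from hanging-drop embryoid bodies dissociated at day 6 and separated by FACS, with both reporters and no further treatment named for either. The 6 other arrays held red-only cells (Red+/Green-) and double-positive cells (Red+/Green+) of the same sorts, 3 each. Experiments A, B and C each gave 1 array per population, and the labels do not say whether the letters stand for separate cultures, so p-values measure the spread between these samples, which may be technical. The labels name neither the gene behind each reporter nor the number of clones. Green-only cells were defined here by reporter signal at 1 time point in culture, which limits them as a model of heart cells in an embryo. Each array gave 1 linear intensity per probe set in array units, analysed as log2.

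Cardiac muscle cells arise from mesoderm that has left the pluripotent state. Transcription factors such as Nkx2-5, Gata4 and Mef2c act on the genes of the contractile apparatus, in which thick filaments of myosin slide along thin filaments of actin and are anchored by titin and the Z-disc. The first heart field supplies the early heart tube, and the second heart field, marked by Isl1, adds cells later. Kdr, a receptor for vascular endothelial growth factor, marks early cardiovascular progenitors and endothelium alike.

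The cell label was checked against 4 marker genes, and values are given here and below in the order of experiments A, B and C. Tnnt2, which encodes cardiac troponin T, had 741, 895 and 920.0 units in green-only arrays A, B and C, against 28.5, 15.2 and 21.1 units in double-negative arrays. Myh6, the alpha cardiac myosin heavy chain, had 376, 585 and 514 units in green-only arrays A, B and C, against 13.3, 10.7 and 10.4 units in double-negative arrays. Actc1, cardiac alpha actin, had 2808, 3106 and 3170.2 units in green-only arrays A, B and C, against 157, 77.6 and 89.0 units in double-negative arrays. The green-only arrays stood far above the double-negative arrays for these 3 genes, with no overlap. The fourth marker, Kdr, had 172, 509.8 and 475 units in green-only arrays A, B and C, against 67.4, 124 and 133 units in double-negative arrays, and green-only array A was the lowest of its group for this gene. Differences in a sorted population can come from fewer cells of a type or from less RNA per cell, which cannot be told apart in these bulk samples.

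Green-only array A stood apart from its replicates. In it 192 genes were over 2-fold above the mean of green-only B and C, against 1 to 40 genes when each of the 11 other arrays was set against the other two of its population. In the downward direction the number was 67 in green-only A and 64 in green-only B, against 1 to 24 in the 10 other arrays. Among the highest genes in green-only A are the endoderm products Afp, Rbp4 and Ttr, and the lowest include the endothelial genes Icam2, Tie1 and Cdh5, all chosen after their values were seen. Double-negative A differed from double-negative B and C in the same direction for these genes, but not for every gene that stood apart in green-only A. The log2 difference from the mean of B and C was 2.63 in green-only A and 2.28 in double-negative A for Afp, 2.46 and 1.73 for Rbp4, and 2.28 and 1.39 for Ttr. It was -2.20 in green-only A and -0.65 in double-negative A for Icam2, -1.94 and -0.25 for Tie1, and -1.91 and -1.31 for Cdh5. For Pcdh8 it was 2.42 and -0.67, and for Plet1 2.30 and -0.04. The median over 21 endoderm genes was 1.51 in green-only A and 0.44 in double-negative A. Over 20 epithelial genes it was 1.29 and 0.11, and over 24 endothelial genes -1.06 and -0.28. The array's actin control, read at the 3′ end over the 5′ end as a sign of RNA integrity, gave 1.35, 1.44 and 1.33 in green-only arrays, against 1.36, 1.36 and 1.34 in double-negative arrays. Results that rest on green-only A are given with and without it.

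Of 18193 genes with a probe set, 13700 were bright enough to test, by their mean over all 12 arrays. With limma, the experiment letter as a block and an adjusted p under 0.05, 1529 genes were higher in green-only cells (11.2% of those tested) and 1776 were lower (13.0%), which makes 3305 genes or 24.1%. Adjustment followed Benjamini and Hochberg. Each ± is the standard error of a log2 fold change between populations of 3 arrays, from a spread estimated over all 12 arrays. It does not measure the spread of the green-only arrays alone. The increases were larger than the decreases. Among genes past the threshold, 339 exceeded a log2 fold change of 1 and 174 lay below -1, 92 exceeded 2 and 29 lay below -2, and 39 exceeded 3 and 10 lay below -3. The median over all genes tested was -0.01. The 3 arrays of one population all lay above the 3 of the other for 4464 genes, 32.6% of those tested, and for 2989 of the genes called. Without green-only A, 1434 genes were called higher and 1896 lower, and 2812 calls were shared, which is 85.1% of the calls with it and 84.4% of the calls without it.

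**Figure D1:**
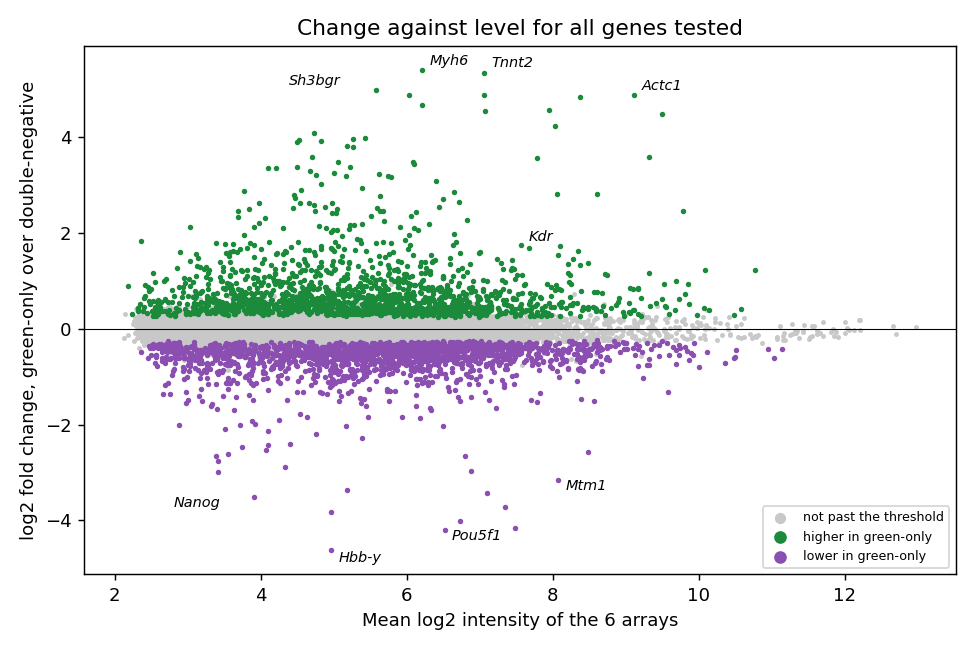
Each point is 1 of the 13700 genes tested, with its mean log2 intensity over the 6 green-only and double-negative arrays on the horizontal axis and the log2 fold change of green-only over double-negative cells on the vertical axis. Green points are the 1529 genes called higher, purple points the 1776 called lower and grey points the rest, and the upper tail reaches 5.41 (Myh6) while the lower tail reaches -4.62 (Hbb-y).

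The 15 largest increases were led by the contractile apparatus. Myh6 was 42.4-fold higher in green-only cells (log2 fold change 5.41 ± 0.27, adjusted p = 9.0e-08), Tnnt2 40.6-fold (log2 fold change 5.34 ± 0.20, adjusted p = 1.1e-08), Ttn 29.5-fold and Actc1 29.5-fold. After these came genes of the myosin light chains Myl3, Myl4, Myl2 and Myl7, the beta cardiac myosin Myh7, the troponins Tnnc1 and Tnni1, the M-line protein Myom1 and the muscle LIM protein Csrp3. The 2 remaining genes were Sh3bgr, with 218, 303 and 296 units in green-only arrays, against 10.4, 7.18 and 8.28 units in double-negative arrays, and Apobec2, a muscle member of the APOBEC family, with 150.2, 142 and 168 units in green-only cells, against 9.39, 7.52 and 13.1 units in double-negative cells. Sh3bgr had 3 probe sets, and neither of the others passed the threshold. All 15 lay between 3.97 and 5.41 on the log2 scale, and the lowest green-only array exceeded the highest double-negative array for each, as the naming rule required. The probe sets of Tnnt2 and Myl3 are of types that may also match related transcripts.

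Promoter sequences are shown for 4 of these genes and for 1 of the largest decreases, picked because they hold motif matches. Promoters without a match, such as those of Myl4, Tnni1, Csrp3, Pou5f1 and Nanog, are not shown. The sequences are RefSeq promoters on GRCm38.p6, from 250 bases before to 50 after the annotated start, written 5′ to 3′ on the gene's strand. Of the 15 increases 14 matched a promoter, and of the 15 decreases 12 matched. Capitals mark motif matches on either strand: the CArG box bound by serum response factor, the GATA motif AGATAA, the M-CAT motif CATTCC bound by TEAD factors, TATAAA (gene strand only) and the octamer ATGCAAAT bound by Pou5f1 and its relatives. The MEF2 box was also searched.
Tnnt2 (chr1:135836084-135836383, plus strand): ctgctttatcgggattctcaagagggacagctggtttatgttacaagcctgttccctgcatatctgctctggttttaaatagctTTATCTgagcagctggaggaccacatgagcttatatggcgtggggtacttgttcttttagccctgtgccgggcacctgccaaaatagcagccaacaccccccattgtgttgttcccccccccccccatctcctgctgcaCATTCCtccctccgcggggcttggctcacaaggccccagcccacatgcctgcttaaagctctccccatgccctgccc
Myl3 (chr9:110763428-110763727, plus strand): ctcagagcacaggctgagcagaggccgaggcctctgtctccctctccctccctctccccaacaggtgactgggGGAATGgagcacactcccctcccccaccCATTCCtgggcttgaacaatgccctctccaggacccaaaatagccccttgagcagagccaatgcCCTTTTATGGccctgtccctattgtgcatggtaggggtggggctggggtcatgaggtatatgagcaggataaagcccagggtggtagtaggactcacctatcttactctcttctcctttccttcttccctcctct
Actc1 (chr2:114052826-114053125, minus strand): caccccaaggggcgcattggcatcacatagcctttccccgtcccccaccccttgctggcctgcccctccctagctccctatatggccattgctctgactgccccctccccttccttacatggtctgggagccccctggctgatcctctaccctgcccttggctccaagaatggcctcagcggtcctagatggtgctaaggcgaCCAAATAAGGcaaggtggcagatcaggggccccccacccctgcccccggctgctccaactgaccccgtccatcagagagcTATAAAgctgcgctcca
Myl7 (chr11:5898733-5899032, minus strand): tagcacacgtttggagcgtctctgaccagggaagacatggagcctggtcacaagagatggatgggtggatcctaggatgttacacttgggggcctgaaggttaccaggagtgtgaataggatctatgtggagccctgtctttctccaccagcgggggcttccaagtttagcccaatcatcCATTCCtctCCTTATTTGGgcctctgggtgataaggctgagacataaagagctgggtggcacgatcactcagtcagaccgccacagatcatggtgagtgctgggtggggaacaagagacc
Pim2 (chrX:7878056-7878355, plus strand): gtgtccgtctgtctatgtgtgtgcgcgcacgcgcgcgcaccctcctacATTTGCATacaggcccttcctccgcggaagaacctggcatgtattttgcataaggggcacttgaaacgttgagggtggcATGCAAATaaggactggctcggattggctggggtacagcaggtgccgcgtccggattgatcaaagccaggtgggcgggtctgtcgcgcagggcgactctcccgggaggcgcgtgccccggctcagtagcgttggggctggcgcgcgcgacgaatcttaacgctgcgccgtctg

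The CArG box was found in 4 of the 14 increased genes' promoters (Actc1, Myl3, Myl7 and Myom1), or 28.6%, against 1.36% of the 10993 promoters of genes tested. CATTCC was found in 8 of 14, or 57.1%, against 12.5%, and in Myl7 it lies just before the CArG box without overlapping it. AGATAA was found in 3 of 14 (21.4% against 6.87%), TATAAA in 3 of 14 (21.4% against 5.13%) and the MEF2 box in 1 of 14, that of Ttn (7.14% against 1.17%). TATAAA began at -34 from the annotated start in Apobec2, but at 1 in Myh6 and at 33 in Actc1, which is not before the start. None of the 12 promoters of decreased genes held the CArG box, the MEF2 box, AGATAA or CATTCC. With shares of 1.36%, 1.17%, 6.87% and 12.5% among genes tested, 12 promoters are too few to show a lack of them. The octamer was found in 1 of the 12, that of Pim2, which holds it at 2 places (8.33% against 1.37% of promoters of genes tested). TATAAA was found in 1 of the 12, that of Hba-x. These matches describe letters in a short window and are not binding sites.

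Thick filament genes rose nearly throughout: 10 of 11 tested were higher, 0 were lower, and their median log2 fold change was 4.49, against -0.01 over all genes. Myl7, the atrial regulatory light chain, had 2899, 3584 and 3875 units in green-only arrays, against 185, 129.6 and 149 units in double-negative arrays. Myl2, its ventricular counterpart, had 265, 566 and 352 units in green-only cells, against 18.8, 11 and 15.6 units in double-negative cells. Both light chains were well above the double-negative arrays in every green-only array (for Myl7 log2 fold change 4.49 ± 0.17, adjusted p = 1.1e-08, and for Myl2 a log2 fold change of 4.67). Myh7 had 1358, 1043 and 1244 units in green-only arrays, against 65.4, 38.2 and 53.2 units in double-negative arrays. Mybpc3, myosin binding protein C, rose by 3.48, and the small muscle protein gene Smpx by 1.83 at levels near the array floor, with 11.8, 8.67 and 8.93 units in green-only cells, against 3.08, 2.49 and 2.65 units in double-negative cells. Smpx was highest in double-positive arrays, which also count toward the filter, so its place among the genes tested rests partly on them.

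Thin filament genes rose in 10 of 11 cases with 0 lower and a median of 3.20. Tnni1, the slow skeletal troponin I of the embryonic heart, had 872, 1301 and 1295 units in green-only arrays, against 54.2, 61.4 and 64.6 units in double-negative arrays. Tnni3, the adult cardiac troponin I, had 53.9, 66.3 and 51.3 units in green-only cells, against 10.5, 7.25 and 8.38 units in double-negative cells. Both rose, Tnni1 by 4.25 and Tnni3 by 2.72, and the arrays of the groups did not overlap. Tnnc1, cardiac troponin C, rose by 4.56, and Tpm1, alpha tropomyosin, by 2.46. Nebl, which encodes nebulette, rose by 3.20.

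All 13 titin and Z-disc genes tested were higher, with a median of 3.35. Ttn, the giant spring of the sarcomere, had 278, 549 and 295 units in green-only arrays, against 12.8, 11.5 and 12 units in double-negative arrays. Actn2, the Z-disc crosslinker alpha-actinin, had 112, 92.9 and 128 units in green-only cells, against 7.76, 7.46 and 6.72 units in double-negative cells. The Z-disc proteins Ldb3 and Nexn rose by 3.39 and 3.39, and Unc45b, a myosin chaperone, by 3.94. Myoz2, another Z-disc gene, was below the filter, with 4.00, 4.97 and 4.53 units in green-only arrays, against 4.36, 3.83 and 4.19 units in double-negative arrays. The summed level of the thick filament genes was 7449.5, 8848 and 9058 units in green-only arrays A, B and C, against 462, 284 and 376 units in double-negative arrays.

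**Figure D2:**
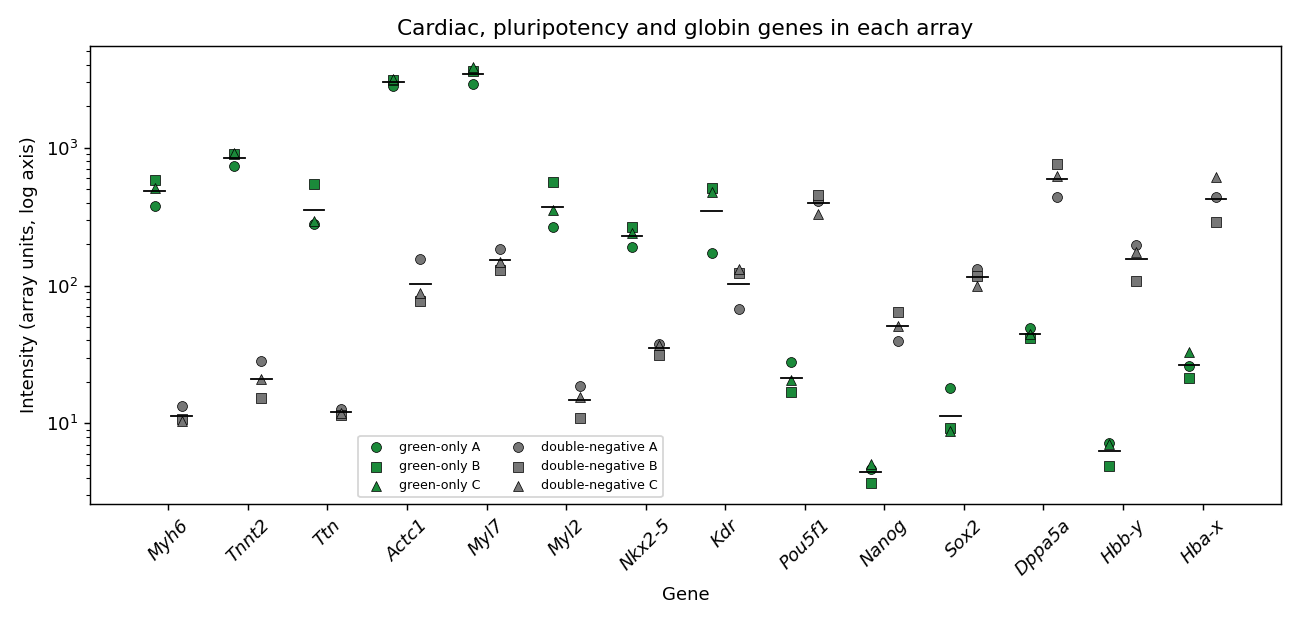
Intensities of 14 named genes in each array on a log axis, green-only arrays (green) left of double-negative arrays (grey), with circles, squares and triangles for experiments A, B and C and bars at the geometric means. The 6 contractile genes, Nkx2-5 and Kdr lie higher in every green-only array, and the 4 pluripotency and 2 globin genes lie lower in every green-only array.

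Cardiac transcription factors rose in 18 of 23 cases, with 0 lower and a median of 1.30. Nkx2-5, the homeobox factor of early heart cells, had 191, 266 and 239.9 units in green-only cells, against 37.9, 31.6 and 37.0 units in double-negative cells. Myocd, the coactivator of serum response factor, had 111, 116 and 108 units in green-only arrays, against 13.1, 8.44 and 8.94 units in double-negative arrays. Mef2c, a MADS box factor of muscle, had 166, 296 and 232 units in green-only cells, against 13.9, 25.2 and 25.7 units in double-negative cells. All 3 separated the populations without overlap, with log2 fold changes of 2.70, 3.48 and 3.44. Tbx20, a T-box factor of the heart, rose by 3.30, the muscle methyltransferase Smyd1 by 3.19 and the chromatin remodelling subunit Smarcd3 by 3.08. Gata4 had 202, 186 and 190.3 units in green-only arrays, against 55.5, 46.7 and 63.7 units in double-negative arrays, and Gata6 rose by 1.95. Hand2, a basic helix-loop-helix factor, rose by 2.78, and its relative Hand1 by 0.75.

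Other factors of heart development did not pass the threshold. Tbx5, which marks the first heart field, had 21.3, 23.5 and 21.3 units in green-only cells, against 21.4, 21.3 and 19.4 units in double-negative cells (adjusted p = 0.60). Mesp1, a factor of nascent cardiac mesoderm, had 9.05, 10.1 and 9.37 units in green-only arrays, against 10.3, 10.5 and 9.81 units in double-negative arrays (adjusted p = 0.42). For both genes the arrays of the populations overlapped.

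Genes linked to the second heart field were raised in 6 of 11 cases, with 0 lower and a median of 0.45, in cells sorted for absence of the red reporter. Isl1 had 89.2, 78.6 and 73.7 units in green-only cells, against 44.3, 35.7 and 53.6 units in double-negative cells, a separation without overlap (log2 fold change 0.87 ± 0.13, adjusted p = 5.6e-04). The increases also held Mef2c, the noncanonical Wnt ligands Wnt5a and Wnt11 (1.63 and 1.47), Foxc2 (0.52) and the ligand Fgf10 (0.45). Foxc2 was not called without double-negative A, double-negative B, green-only B or green-only C. Fgf10 was not called without double-negative B, double-negative C or green-only C. The lowest count of increases with 1 array left out was 4. Tbx1, a T-box factor of pharyngeal mesoderm, had 11.6, 9.43 and 6.80 units in green-only arrays, against 12.3, 11.9 and 15.8 units in double-negative arrays (adjusted p = 0.067). Fgf8, a growth factor gene of the same tissue, did not pass the threshold (log2 fold change 0.36). Without double-negative A, and also without green-only A, 2 genes of the list were called lower.

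Calcium cycling genes rose in part. Of 18 tested, 10 were higher and 0 lower, with a median of 0.54, and 1 was lower without double-negative C. Ryr2, the calcium release channel, had 32.5, 45.3 and 26.8 units in green-only cells, against 7.62, 6.71 and 4.25 units in double-negative cells. Slc8a1, the sodium-calcium exchanger, had 32.2, 47.9 and 20 units in green-only arrays, against 8.33, 6.55 and 6.70 units in double-negative arrays. Both rose (2.50 and 2.13), as did the calcium store protein Hrc (2.46), the junctional protein Jph2 (2.36) and the calcium channel subunits Cacna1c (1.78) and Cacna2d2 (2.1). Atp2a2, the pump that refills the store, had 326, 285 and 292 units in green-only cells, against 266, 279 and 247 units in double-negative cells and missed the threshold (adjusted p = 0.14). Pln, the inhibitor of that pump, had 6.67, 7.24 and 6.22 units in green-only arrays, against 5.66, 6.07 and 5.05 units in double-negative arrays (adjusted p = 0.42). For Pln the green-only arrays were just above the double-negative arrays, at levels close to the floor.

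Among 9 channel genes tested, 2 were higher and 1 was lower, beside 11.2% higher and 13.0% lower among all genes. Kcnh2, a repolarising potassium channel, had 62.0, 92.6 and 78.4 units in green-only cells, against 28.9, 24.6 and 21.5 units in double-negative cells, and Kcnj5, a subunit of an acetylcholine-gated channel, had 16.5, 14.1 and 14.1 units in green-only arrays, against 5.56, 6.05 and 6.60 units in double-negative arrays. Its partner subunit Kcnj3 had 9.20, 9.80 and 11.6 units in green-only cells, against 15.5, 15 and 11.7 units in double-negative cells. The populations separated without overlap in opposite directions for these partners, upward for Kcnj5 (1.29) and downward for Kcnj3 (-0.46). For Kcnj3 the gap was slight, with 11.6 units in green-only C and 11.7 units in double-negative C. The call for Kcnj3 was lost without green-only A, green-only B, double-negative A or double-negative B (adjusted p = 0.078 without green-only A).

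Chamber genes rose in 8 of 17 cases with 1 lower, the potassium channel Kcnj3, and 4 of the increases are the myosin genes already described. Irx4, a ventricular homeobox factor, had 9.69, 19.9 and 14.7 units in green-only arrays, against 6.09, 5.21 and 5.99 units in double-negative arrays (log2 fold change 1.30 ± 0.20, adjusted p = 5.3e-04). The natriuretic peptide genes stayed low: Nppa had 6.00, 4.28 and 6.71 units in green-only cells, against 4.78, 4.56 and 4.35 units in double-negative cells, and Nppb had 13.9, 12.8 and 9.96 units in green-only arrays, against 11.3, 8.51 and 9.32 units in double-negative arrays. Neither passed the threshold (adjusted p = 0.21 for Nppa and 0.1 for Nppb).

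Junction genes rose in 5 of 9 cases. Cdh2, the N-cadherin of the intercalated disc, had 178, 156 and 171 units in green-only cells, against 39.2, 32.9 and 39.3 units in double-negative cells. Desmosomal genes rose with it, Dsp by 1.56 and Pkp2 by 1.22. Gja1, connexin 43, had 521, 183 and 171 units in green-only arrays, against 393, 386 and 432 units in double-negative arrays. In green-only A Gja1 lay above all 3 double-negative arrays and in green-only B and C below them, so that it passed the threshold only without green-only A (log2 fold change -1.19, adjusted p = 3.5e-05). Gja4, connexin 37 of blood vessels, rose by 1.55.

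Smooth muscle genes rose in 7 of 10 cases, with 0 lower and a median of 0.80. Acta2, smooth muscle actin and also a transient actin of the early heart, had 2045, 2299 and 2305 units in green-only cells, against 219.9, 156 and 180.1 units in double-negative cells. Cnn1, calponin, had 64.1, 59.8 and 71.0 units in green-only arrays, against 17.9, 11.6 and 18.1 units in double-negative arrays. Acta2 rose by 3.59 and Cnn1 by 2.06. Tagln rose by 1.05, a call that was lost without green-only B or double-negative A. The most specific gene of the list, the smooth muscle myosin Myh11, was below the filter, with 4.74, 4.81 and 5.69 units in green-only cells, against 4.92, 5.12 and 5.23 units in double-negative cells.

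Mesenchyme and matrix genes rose in 14 of 26 cases with 1 lower and a median of 0.49. Vim, the intermediate filament of mesenchyme, had 1049, 2005 and 2220.3 units in green-only arrays, against 569, 760.1 and 823 units in double-negative arrays. Col5a1, a fibrillar collagen, had 239.8, 250.4 and 259 units in green-only cells, against 41.7, 52.3 and 62.8 units in double-negative cells. Vim rose by 1.24 and Col5a1 by 2.28, without overlap between the populations. Col3a1 had 24.0, 20.1 and 19.1 units in green-only arrays, against 34.0, 23.9 and 21.4 units in double-negative arrays and did not pass the threshold (adjusted p = 0.56). Pdgfra, a receptor of mesenchyme and cardiac progenitors, had 10.7, 13.7 and 18.3 units in green-only cells, against 12, 12.8 and 11 units in double-negative cells (adjusted p = 0.49). Basement membrane and integrin genes rose in 13 of 16 cases, with a median of 0.56. Col4a1, a basement membrane collagen, had 371, 482 and 505 units in green-only arrays, against 171, 198 and 256 units in double-negative arrays, and its partner Col4a2 rose by 1.24. That count was 7 without green-only B, and 9 without green-only A.

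Endothelial genes rose in 18 of 24 cases with 0 lower and a median of 0.90. Cdh5, the cadherin of endothelial junctions, had 25.2, 96.2 and 94.1 units in green-only cells, against 9.45, 22.4 and 24.7 units in double-negative cells. Tek, the angiopoietin receptor, had 35.8, 123 and 110.0 units in green-only arrays, against 15.1, 30.3 and 22.3 units in double-negative arrays. Tie1, its orphan relative, had 14.3, 56.1 and 53.7 units in green-only cells, against 13.7, 17.2 and 15.6 units in double-negative cells. Green-only A was the lowest green-only array for all 3 genes, and B and C were over 3 times any double-negative array in all 3. The list's summed level was 785, 1744 and 1763 units in green-only arrays A, B and C, against 479.8, 600.2 and 658 units in double-negative arrays. Without green-only A, 22 of the 24 genes were called higher, with a median of 1.17, and Kdr rose by 2.06 instead of 1.74.

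Within experiments the endothelial median was 0.39 in A, 1.15 in B and 1.10 in C. The endothelial factor Etv2 rose by 0.54 (21.3, 31.5 and 34.8 units in green-only arrays, against 17.3, 22.7 and 19.3 units in double-negative arrays). Pecam1, an adhesion molecule of endothelium, had 10.8, 19.2 and 25.3 units in green-only arrays, against 8.79, 12.5 and 12.8 units in double-negative arrays. Its call (log2 fold change 0.63, adjusted p = 0.017) held in 1 of the 6 fits that left out an array, the one without green-only A.

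**Figure D3:**
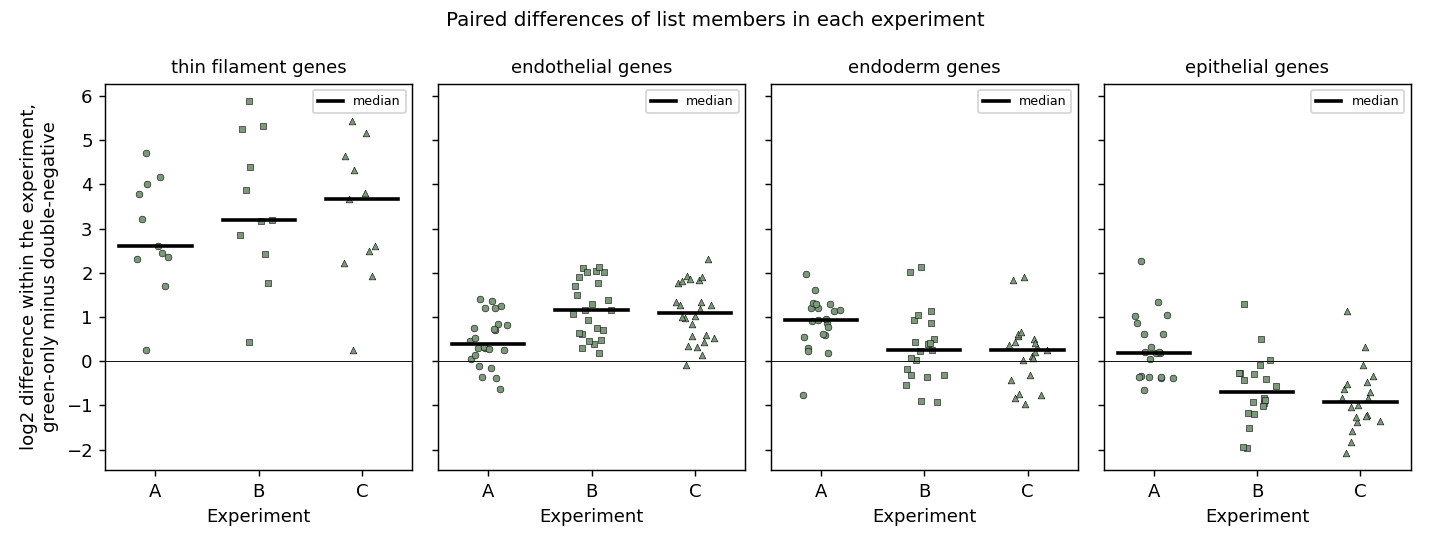
Each point is the log2 difference of green-only minus double-negative within experiment A, B or C for 1 gene of the thin filament, endothelial, endoderm and epithelial lists, with bars at the medians. Thin filament medians are 2.61, 3.19 and 3.68 in A, B and C. Experiment A is lower than B and C in the endothelial list, and higher in the endoderm and epithelial lists.

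Endoderm genes rose in 6 of 21 cases with 0 lower and a median of 0.37, beside 11.2% higher and 13.0% lower among all genes. Of the genes named here, Hhex rose by 1.10, Apoe by 0.83, and Sox17, Sox7 and Gata6 by 0.91, 1.74 and 1.95. Sox7 and Sox17 are also on the endothelial list and Gata6 on the cardiac list, and the call of Sox17 was lost without double-negative B. Among secreted endoderm products Apoe rose, whereas Ttr and Spink1 did not pass. Ttr, transthyretin, had 417, 55.9 and 133 units in green-only cells, against 171, 39.7 and 107 units in double-negative cells. Spink1, a trypsin inhibitor gene, had 1428, 200.4 and 434 units in green-only arrays, against 578, 170.4 and 426 units in double-negative arrays. Both genes were highest in green-only A and in double-negative A within their populations, and the populations overlapped. Within each experiment green-only exceeded double-negative for both, by log2 differences of 1.29, 0.49 and 0.31 for Ttr and 1.30, 0.23 and 0.03 for Spink1. Ttr was called higher without green-only B (0.95) and Spink1 without green-only C (0.86), and neither in the other fits that left out 1 array. The list's summed level was 4881, 1516 and 2235 units in green-only arrays A, B and C, against 2395, 916 and 1828 units in double-negative arrays. Without green-only A the list had 5 higher and 3 lower, with a median of 0.17. Foxa2, a definitive endoderm factor, was then called lower (log2 fold change -0.73, adjusted p = 0.0034), against -0.19 with all arrays.

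Epithelial genes were lower in 10 of 20 cases and higher in 2, with a median of -0.54. Epcam, an adhesion molecule of epithelia and embryonic stem cells, had 235, 85.1 and 97.8 units in green-only cells, against 372, 333 and 347 units in double-negative cells (log2 fold change -1.49 ± 0.26, adjusted p = 0.0015). Cdh1, E-cadherin, had 122, 39.0 and 39.5 units in green-only arrays, against 106, 111 and 119 units in double-negative arrays. Green-only A lay above the double-negative arrays for Cdh1, and B and C lay far below them. Its call (adjusted p = 0.042) was lost without green-only B or C or double-negative B or C, and without green-only A the log2 fold change was -1.43 in place of -0.97. Krt18, a simple epithelial keratin, had 1496, 387 and 465 units in green-only cells, against 818, 469 and 718 units in double-negative cells and did not pass (adjusted p = 0.98). The summed level of the list was 5357, 1864 and 2023 units in green-only arrays A, B and C, against 3576, 2808 and 3483 units in double-negative arrays. Without green-only A, 14 genes were lower and 1 was higher, and the median was -0.78. The increases were Dsp and the keratin Krt19 (0.72), of which 1 was called without any one of green-only A, green-only B, double-negative A or double-negative C. Without any one of the arrays green-only B, green-only C, double-negative B or double-negative C, the count of lower genes was 5 or 6. The part of epithelial and endoderm RNA in the other results of green-only A was not tested.

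The largest decreases marked pluripotent cells and primitive blood. Pluripotency genes were lower in 14 of 21 cases and higher in 2, with a median of -1.02. Pou5f1, the octamer-binding factor Oct4, had 28.0, 17 and 20.7 units in green-only arrays, against 408, 456 and 329 units in double-negative arrays. Nanog, its homeobox partner, had 4.63, 3.71 and 5.08 units in green-only cells, against 39.5, 64.3 and 51.3 units in double-negative cells. Sox2, the high mobility group factor that binds beside Oct4, had 18, 9.21 and 8.78 units in green-only arrays, against 133, 118 and 100.1 units in double-negative arrays. All 3 were far lower in each green-only array, Pou5f1 by 18.4-fold (log2 fold change -4.20 ± 0.20, adjusted p = 6.9e-08) and Nanog by 11.4-fold. Green-only levels of Nanog lay near the array floor, so that fold is limited by it. Dppa5a had 48.9, 41.8 and 44.3 units in green-only cells, against 442, 758 and 627 units in double-negative cells, and the embryonic stem cell factor Utf1 had 44.3, 39.4 and 42.7 units in green-only arrays, against 401, 294 and 307 units in double-negative arrays. L1td1, an RNA-binding protein of pluripotent cells, fell by 3.82 on the log2 scale, and the DNA methyltransferases Dnmt3b and Dnmt3l changed by -2.57 and -2.48. Zfp42 was low in both populations, with 4.23, 4.69 and 4.66 units in green-only cells, against 7.76, 10.4 and 11.8 units in double-negative cells (log2 fold change -1.12 ± 0.12, adjusted p = 4.7e-05). Tdgf1, the Nodal coreceptor Cripto, did not change detectably (48.8, 51.2 and 83.4 units in green-only arrays, against 50.2, 65.1 and 63.5 units in double-negative arrays, adjusted p = 1.0). The 2 increases, named after their values were seen, were Klf2 and Klf4 (0.86 and 0.81), zinc finger factors that are also active in endothelium. Neither was called without double-negative B, double-negative C or green-only B, and 1 was called without green-only C.

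Primitive globins were among the largest decreases, and Hbb-y was the largest. Hbb-y, an embryonic beta-type globin, had 7.23, 4.87 and 7.05 units in green-only cells, against 197, 108 and 174 units in double-negative cells. Hbb-bh1, another, had 36.6, 35.5 and 58.4 units in green-only arrays, against 578, 653 and 1149 units in double-negative arrays. Hba-x, the embryonic alpha-type globin, had 26.2, 21.5 and 33.0 units in green-only cells, against 438, 288 and 612 units in double-negative cells. The lowest double-negative array stood far above the highest green-only array for these 3 genes. Their log2 fold changes were -4.62, -4.16 and -4.01, and the beta-type globins share sequence, so their probe sets may share signal. Of 12 blood genes tested, 4 were lower and 1 was higher, beside 13.0% lower and 11.2% higher among all genes. Alas2, the heme enzyme of red cells, was the fourth decrease (5.21, 5.71 and 6.62 units in green-only arrays, against 9.33, 9.29 and 12.1 units in double-negative arrays). The erythroid factor Gata1 had 6.00, 6.09 and 6.25 units in green-only cells, against 8.21, 6.13 and 6.68 units in double-negative cells and did not pass (adjusted p = 0.26). Lmo2, an adaptor of blood and endothelial transcription factors, was the increase, with 42.2, 88.3 and 79.9 units in green-only arrays, against 23.4, 33.9 and 40 units in double-negative arrays (log2 fold change 1.08 ± 0.13, adjusted p = 9.0e-05). Ptprc, the leukocyte antigen CD45, was below the filter, with 3.08, 3.38 and 3.83 units in green-only cells, against 3.88, 2.90 and 2.92 units in double-negative cells.

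The rest of the 15 largest decreases were of mixed kinds. Pim2, a serine-threonine kinase, had 53.3, 35.3 and 39.3 units in green-only arrays, against 467, 496 and 393 units in double-negative arrays. Mtm1, a phosphoinositide phosphatase, had 149, 58.0 and 84.6 units in green-only cells, against 1006, 706 and 735 units in double-negative cells. Green-only arrays were lower for both, with Mtm1 at -3.16 and Pim2 at -3.42. The others were Trap1a (-2.99), the carbonyl reductase Cbr3 (-2.88), the blood progenitor factor Myb (-2.76) and the cationic amino acid transporter Slc7a3 (-2.66). The probe sets of Hbb-y and Myb are of a type that may match related transcripts.

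**Figure D4:**
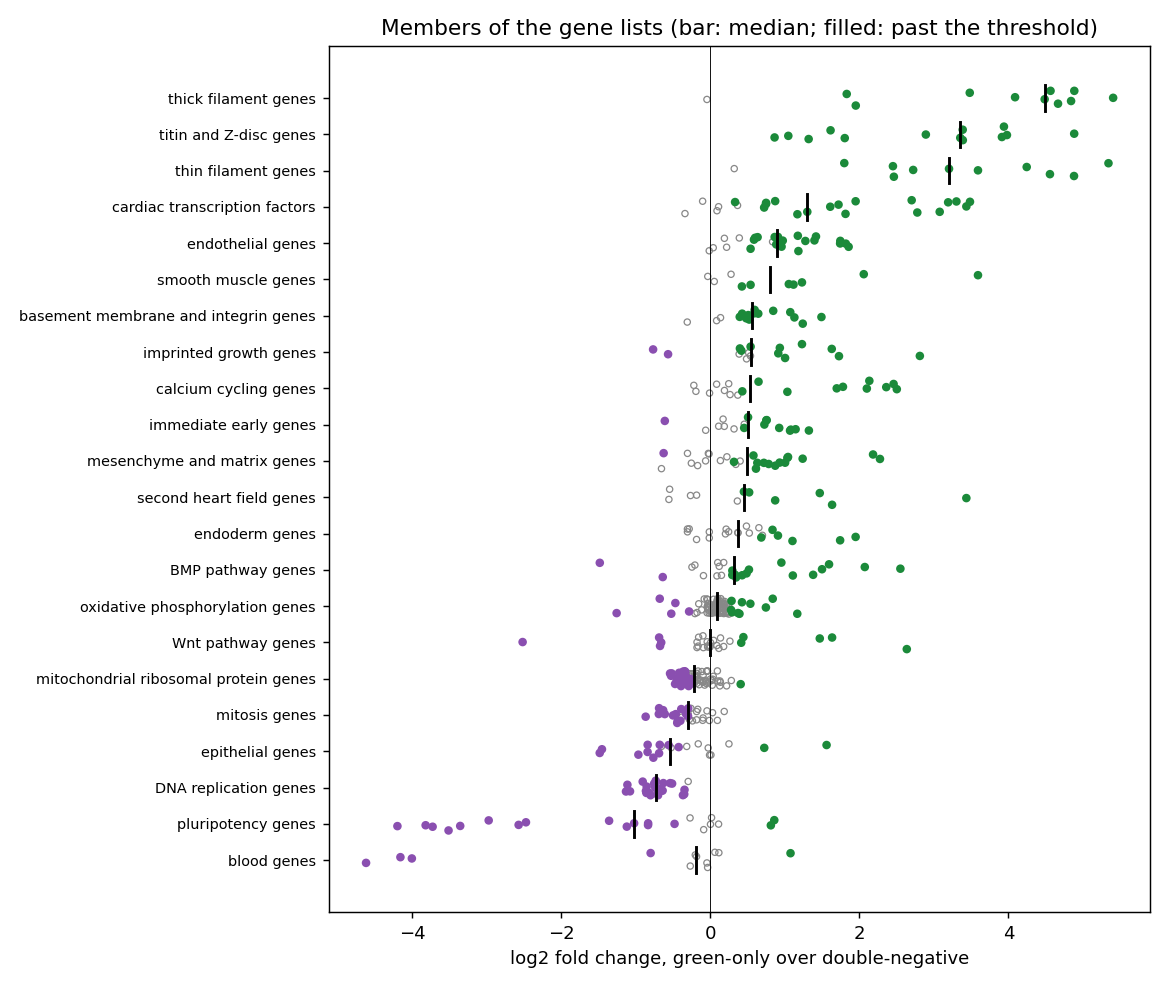
Log2 fold changes of green-only over double-negative cells for the members of 22 gene lists, 1 point per gene tested, filled where the adjusted p was under 0.05, with bars at the list medians. The thick filament, thin filament, and titin and Z-disc lists lie furthest to the right, with medians of 4.49, 3.20 and 3.35, and the pluripotency list has the lowest median, -1.02.

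Several neural genes fell. Neural genes were lower in 7 of 15 cases and higher in 0, against 13.0% lower among all genes. Otx2, a factor of the epiblast and anterior brain, had 99.6, 28.7 and 32.4 units in green-only arrays, against 166, 132 and 130.2 units in double-negative arrays. Stmn2, a neuronal microtubule regulator, had 14.6, 22.7 and 17.1 units in green-only cells, against 83.2, 64.8 and 71.6 units in double-negative cells. Both fell without overlap (-1.65 and -2.03), and green-only A was the highest green-only array for Otx2. Tubb3, the neuronal tubulin, fell by 1.15 on the log2 scale, and Nes and Pax6 did not pass (adjusted p = 0.65 and 0.65). The neural count was 4 without green-only A, green-only B or double-negative A. Of 18 streak and nascent mesoderm genes 3 were lower and 0 higher, with a median of -0.07, a share near the 13.0% of all genes. Fst, an activin antagonist, had 9.02, 8.16 and 9.73 units in green-only arrays, against 23.6, 25.5 and 26.1 units in double-negative arrays, and the Nodal antagonist Lefty1 fell by 1.11 on the log2 scale. Eomes had 64.3, 25 and 27.3 units in green-only cells, against 53.0, 45.9 and 59.8 units in double-negative cells and passed only when green-only A or double-negative A was left out (-0.86 without green-only A). Without green-only A, 6 genes of that list were lower. Of 10 paraxial and skeletal muscle genes 2 were lower, Pax1 (-1.02) and Dll3 (-0.56), beside 13.0% among all genes. The skeletal muscle factor Myod1 had 5.07, 5.23 and 6.10 units in green-only arrays, against 5.70, 6.76 and 5.06 units in double-negative arrays (adjusted p = 0.65). The epicardial factor Wt1 was below the filter (3.80, 4.16 and 3.20 units in green-only cells, against 4.11, 4.56 and 4.29 units in double-negative cells).

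Among the signalling lists the BMP pathway had the most increases. In it, secreted ligands bind serine-threonine kinase receptors and act through Smad proteins. Of 24 genes 14 were higher and 2 lower, with a median of 0.31. The ligand Bmp4 had 154, 148 and 138 units in green-only arrays, against 21.4, 37.1 and 53.0 units in double-negative arrays. The ligand Bmp5 had 68.6, 68.8 and 77.2 units in green-only cells, against 8.40, 12.6 and 17.1 units in double-negative cells. Bmp2 had 37.1, 20.5 and 23.3 units in green-only arrays, against 9.11, 9.01 and 12.2 units in double-negative arrays. All 3 ligands were higher in every green-only array, with log2 fold changes of 2.07, 2.55 and 1.38. The decoy receptor Bambi rose by 1.59 and the inhibitory Smad6 by 1.5. The count of increases was 8 without double-negative B.

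Wnt genes moved both ways, with 5 of 27 higher and 4 lower, beside 11.2% higher and 13.0% lower among all genes. The share of decreases lies near that of all genes. Wnt2, a ligand of early cardiac mesoderm, had 32.8, 97.9 and 79.5 units in green-only cells, against 5.30, 15.4 and 13 units in double-negative cells. Sfrp2, a secreted Wnt antagonist, had 7.49, 6.52 and 7.22 units in green-only arrays, against 41.3, 41.1 and 39.2 units in double-negative arrays. The ligand rose (2.64) and the antagonist fell (-2.52), each without overlap. Axin2, a feedback target of the canonical pathway, had 12.2, 15 and 15.2 units in green-only cells, against 14.6, 14.3 and 14.4 units in double-negative cells (adjusted p = 0.83), and Lef1 did not pass (adjusted p = 0.46). The count of increases was 3 without green-only B or double-negative C.

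Of 20 FGF genes 1 was higher and 4 were lower, beside 11.2% higher and 13.0% lower among all genes. The ligand Fgf15 had 7.98, 10.5 and 9.38 units in green-only arrays, against 48.8, 42.2 and 55.7 units in double-negative arrays, and the ligand Fgf5 of the primed epiblast had 82.3, 21.0 and 20.1 units in green-only cells, against 129.6, 116 and 104 units in double-negative cells. Both fell (-2.40 and -1.83), as did the receptor Fgfr1 (-0.82). The increase was Fgf10, which was not called without double-negative B, double-negative C or green-only C. Of 18 Notch genes 2 were higher and 3 lower, shares near the 11.2% and 13.0% of all genes. Notch1, a receptor, had 56.2, 148 and 118 units in green-only arrays, against 41.2, 66.3 and 59.5 units in double-negative arrays, with green-only A inside the double-negative range. Without double-negative B or green-only B 1 Notch gene was higher, and without double-negative C or green-only A 5 were lower. The Notch target Hey1 had 24.9, 42.0 and 51.0 units in green-only cells, against 28.6, 40.9 and 45.7 units in double-negative cells (adjusted p = 1.0). Of 12 retinoic acid genes 2 were lower, the binding protein Crabp2 (-1.21) and the receptor Rarg (-0.61), a share near the 13.0% of all genes. In that list 1 gene was higher without green-only B or green-only C. Of 16 Hox genes tested 4 were higher and 0 lower, beside 11.2% higher and 13.0% lower among all genes. They were led by Hoxb2, with 11.9, 16.5 and 20.1 units in green-only arrays, against 5.34, 8.22 and 9.41 units in double-negative arrays. Without double-negative B, green-only B or green-only C, 2 Hox genes were higher, a share near that of all genes.

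DNA replication genes fell almost throughout. Of 27 tested 26 were lower and 0 higher, with a median of -0.73 and 23 or more lower when any one array was left out. Mcm5, a subunit of the replicative helicase, had 249, 242 and 258 units in green-only cells, against 433, 468 and 466 units in double-negative cells. Pcna, the sliding clamp, had 786, 695 and 763 units in green-only arrays, against 1157, 1140.2 and 1222 units in double-negative arrays. The arrays separated without overlap for both (-0.87 and -0.65). Pold1, a DNA polymerase subunit, fell by 1.11 on the log2 scale and the uracil glycosylase Ung fell by 1.13. Mitosis genes were lower in 14 of 29 cases and higher in 0, with a median of -0.30, and the count was 9 without double-negative A. Bub1, a spindle checkpoint kinase, had 60.5, 43.2 and 58.6 units in green-only cells, against 96.5, 95.6 and 101 units in double-negative cells. The proliferation marker Mki67 had 184, 199.6 and 182 units in green-only arrays, against 206, 195 and 206 units in double-negative arrays and did not pass (adjusted p = 0.59).

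Among cyclins of the early cell cycle and inhibitors, 7 of 16 were higher and 3 lower. Cdkn1c, the inhibitor p57, had 815, 1084 and 1242 units in green-only cells, against 127, 133 and 188 units in double-negative cells (log2 fold change 2.81 ± 0.11, adjusted p = 2.5e-08). Ccnd2 had 364, 451 and 452 units in green-only arrays, against 219, 185 and 243 units in double-negative arrays, whereas Ccnd1, its relative, had 59.2, 60.2 and 73.3 units in green-only cells, against 124, 103 and 95.9 units in double-negative cells. The D cyclins moved in opposite directions (0.97 for Ccnd2, -0.74 for Ccnd1). Ccne1, the cyclin of entry into replication, changed by -0.82.

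Energy metabolism lists moved to different extents. Of 88 oxidative phosphorylation genes 10 were higher and 5 lower, with a median of 0.09. The share of increases lies near the 11.2% of all genes, and the share of decreases below the 13.0%. Muscle forms of cytochrome oxidase subunits were among the increases: Cox6a2 had 31.2, 54.7 and 41.0 units in green-only arrays, against 18.5, 19.4 and 17.2 units in double-negative arrays, and Cox7a1 rose by 0.84. Cox6b2 fell by 1.26 on the log2 scale. The count of increases was 5 or 6 without double-negative A, double-negative B, green-only B or green-only C, and the count of decreases was 3 without double-negative B or green-only B. Ppargc1a, a coactivator of mitochondrial genes, had 14.3, 16.3 and 9.47 units in green-only cells, against 4.27, 4.27 and 4.35 units in double-negative cells. Fatty acid oxidation genes were higher in 8 of 17 cases and lower in 1, a share of increases above that of all genes. Without green-only A the counts were 6 and 3. Without green-only B or double-negative A they were 4 and 0, and without double-negative B none was lower. Fabp3, the heart fatty acid binding protein, had 76.8, 131 and 104 units in green-only arrays, against 100.3, 104 and 97.2 units in double-negative arrays (adjusted p = 0.97). Glycolysis genes were higher in 5 of 19 cases and lower in 1, beside 11.2% higher and 13.0% lower among all genes. Of the 19 genes 3 were higher without double-negative B. None was lower without green-only C or double-negative C, and 2 were lower without double-negative A. Eno3, the muscle enolase, had 202, 221 and 251 units in green-only cells, against 88.5, 54.0 and 83.4 units in double-negative cells, and Hk1, a hexokinase, rose by 1.40. Of 4 creatine kinase and myoglobin genes 1 was higher, Ckb, by 0.97, beside 11.2% higher among all genes. Mb, myoglobin, had 10.2, 10.3 and 10.4 units in green-only arrays, against 8.29, 8.21 and 9.34 units in double-negative arrays (adjusted p = 0.11).

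Ribosomal protein genes of mitochondria were lower in 28 of 76 cases and higher in 1, with a median of -0.22. The named decreases were small. Mrpl15 had 153, 128 and 136 units in green-only cells, against 216, 192 and 198 units in double-negative cells. The count was 16 without green-only A, 10 without green-only B, 11 without double-negative A, 13 without double-negative B and 16 without double-negative C. Of 45 cytosolic ribosomal protein genes 5 were lower and 0 higher, and the share of decreases lies near the 13.0% of all genes. The largest decrease was Rps4l, with 109, 95.3 and 90.0 units in green-only arrays, against 186, 228 and 209 units in double-negative arrays. The cytosolic count was 3 without green-only B, double-negative B or double-negative C.

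Immediate early genes, which respond within minutes to stimuli and also to tissue dissociation, were higher in 10 of 17 cases and lower in 1, with a median of 0.51. Fos had 505, 548 and 879 units in green-only cells, against 263, 280.3 and 306 units in double-negative cells. Egr1 had 531, 448 and 635 units in green-only arrays, against 264, 312 and 385 units in double-negative arrays. Every green-only array lay above the double-negative arrays for both, and green-only C was the highest. Their log2 fold changes were 1.14 and 0.75. Both populations went through the same dissociation and sort according to the labels, and the part of handling in these values was not tested.

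Imprinted growth genes were higher in 10 of 16 cases and lower in 2, with a median of 0.54. Igf2, a paternally expressed growth factor, had 2278, 3196 and 2631 units in green-only cells, against 908, 1215 and 1348 units in double-negative cells. Igf2r, the receptor that clears it, had 641, 439 and 448 units in green-only arrays, against 158, 139 and 158 units in double-negative arrays. Ligand and receptor both rose, Igf2 by 1.23 and Igf2r by 1.73. Plagl1, a zinc finger factor, rose by 1.63, and Dlk1, a transmembrane protein of the Notch family, by 1.0.

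Green-only cells were also set against the other sorted populations. These comparisons use the same green-only arrays as the one against double-negative cells, so the values are given side by side. Against red-only cells 412 genes were higher in green-only cells (3.01% of 13700) and 271 lower (1.98%), and against double-positive cells 632 were higher (4.61%) and 516 lower (3.77%). The red-only counts were 247 and 138 without green-only B, 203 and 116 without red-only A and 205 and 124 without red-only B, and 168 were lower without green-only C. The double-positive counts were 289 and 188 without double-positive A and 359 and 267 without double-positive B, with 406 higher without double-positive C and 264 lower without green-only A. Thick filament genes mostly lay between the red populations: of 11 thick filament genes 9 exceeded the red-only level and 0 were below it, and 9 were below the double-positive level and 0 above it. Without green-only A, 6 were below the double-positive level and 9 above the red-only level. Of 11 thin filament genes 8 were below the double-positive level, and of 13 titin and Z-disc genes 10, against 6 of each without green-only A. Of 23 cardiac transcription factors 2 were higher and 2 lower than in red-only cells, with or without green-only A. Against double-positive cells 0 were higher and 7 lower, and 1 and 5 without green-only A. Of 21 pluripotency genes 1 was higher and 0 lower than in red-only cells, with or without green-only A. Against double-positive cells 4 were higher and 1 lower, and 3 and 1 without green-only A. Myl2 had 265, 566 and 352 units in green-only arrays A, B and C, against 1230.2, 1194 and 864 units in double-positive arrays, 24.1, 28.7 and 48.8 units in red-only arrays and 18.8, 11 and 15.6 units in double-negative arrays. Its log2 fold change was 3.54 over red-only cells and -1.53 over double-positive cells (adjusted p = 1.8e-04 and 0.011). Its green-only arrays overlapped with none of the others. The 5 largest increases over red-only cells were Myl2, Myl3, Myh6, Pyy and Cdh1, with log2 fold changes of 3.54, 3.14, 2.85, 2.62 and 2.59. Pyy, a gut peptide hormone gene, had 588, 69.7 and 193 units in green-only arrays, against 22.4, 30 and 50.4 units in red-only arrays, and green-only A was 3 times the next array. Without green-only A the log2 fold change of Pyy was 1.80 (adjusted p = 0.0019).

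The 5 largest decreases against red-only cells held matrix and mesenchyme genes. Cdh11, a mesenchymal cadherin, had 5.13, 7.73 and 5.88 units in green-only arrays, against 59.7, 49.4 and 44.4 units in red-only arrays (log2 fold change -3.04 ± 0.25, adjusted p = 1.4e-04). Col3a1 had 24.0, 20.1 and 19.1 units in green-only arrays, against 384, 74.5 and 73.4 units in red-only arrays. Every green-only array lay below the red-only arrays for both. The others were Tgfbi (-2.27), Col26a1 (-2.09) and the retinoid-binding Crabp1 (-2.07). Of 26 mesenchyme and matrix genes 12 were lower and 1 higher. The factor Etv2 was lower too, with 21.3, 31.5 and 34.8 units in green-only arrays, against 69.0, 84.0 and 83.5 units in red-only arrays (-1.46).

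Against double-positive cells the 5 largest decreases were Smpx, Mlf1, Diras2, Mylk3 and Tdgf1. Smpx had 11.8, 8.67 and 8.93 units in green-only arrays, against 68.2, 32.2 and 37.1 units in double-positive arrays (log2 fold change -2.16 ± 0.17, adjusted p = 8.3e-05). These double-positive values also count toward the filter that Smpx passed. Mlf1 had 10.9, 14.5 and 19.1 units in green-only arrays, against 57.1, 49.3 and 62.6 units in double-positive arrays. Tdgf1 had 48.8, 51.2 and 83.4 units in green-only arrays, against 221, 169 and 186 units in double-positive arrays. No array overlapped for these 3 genes. Over red-only cells the log2 fold change was -1.75 for Mlf1 and 1.12 for Tdgf1 (adjusted p = 1.1e-04 and 0.0042). Cardiac myosin kinase Mylk3 differed by -1.74 and Diras2, a small GTPase, by -1.77.

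The 5 largest increases over double-positive cells were Cdh1, Cpm, Spink1, Cldn7 and Tmprss2, and green-only A was the highest array of its population for each. Without green-only A their log2 fold changes were between 2.22 and 2.75. Cdh1 had 122, 39.0 and 39.5 units in green-only arrays, against 6.76, 4.09 and 8.61 units in double-positive arrays (log2 fold change 3.21 ± 0.31, adjusted p = 2.8e-04). Green-only B and C also exceeded every double-positive array. Cldn7, a tight junction claudin, had 173, 58.4 and 59.1 units in green-only arrays, against 12.2, 9.47 and 16.0 units in double-positive arrays. Of 20 epithelial genes 16 were higher than in double-positive and 17 higher than in red-only cells. The epithelial sum was 5357, 1864 and 2023 units in green-only arrays A, B and C, against 901, 600.1 and 852 units in double-positive and 902, 555 and 937 units in red-only arrays. Green-only B and C also exceeded all 6 of those arrays, and without green-only A 16 and 15 of the genes were higher. Of 24 endothelial genes 17 were higher than in double-positive cells and 0 lower, and 2 were higher and 1 lower than in red-only cells. Without green-only A the endothelial counts were 19 and 0 against double-positive cells, and 10 and 1 against red-only cells. Kdr had 172, 509.8 and 475 units in green-only arrays, against 118, 143 and 174 units in double-positive arrays (log2 fold change 1.27 ± 0.21, adjusted p = 0.0036) and 319.8, 465 and 369.5 units in red-only arrays (adjusted p = 0.80).

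**Figure D5:**
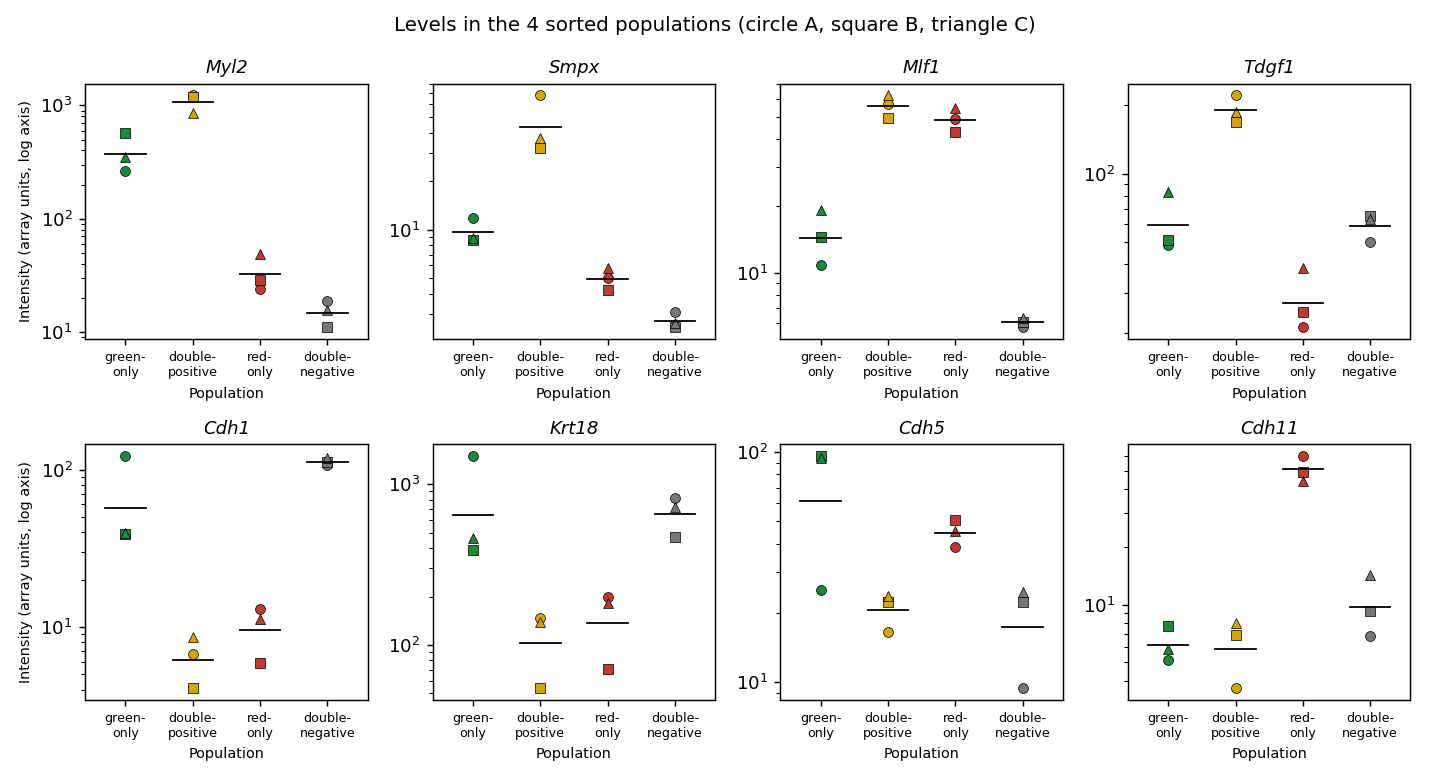
Intensities of 8 genes on log axes in the 4 populations, with green-only at left and double-negative at right, symbols for experiments A, B and C, and bars at the geometric means. Myl2 and Smpx rank double-positive, green-only, red-only and double-negative by mean, Cdh1 is high in green-only and double-negative arrays, and Cdh11 is high in red-only arrays.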

How the data were processed

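Total RNA was extracted with Trizol, and biotin-labelled cRNA from 5 ug was hybridised to 12 1-colour Affymetrix arrays, per the labels' protocols. The deposited values are linear intensities per probe set that the authors made with MAS5, per the submitters' processing notes. Neither the version nor the scaling is given in the sources used here, and no detection calls were used. Array medians ran from 6.29 to 6.73 units.

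Groups were taken from the sample titles, because the sort description writes the double-negative gate as another population. Of 45101 probe sets, 34945 had 1 gene in the platform annotation, 932 had several, 9160 had none and 64 were controls. The probe set with the highest mean stood for each gene. Genes whose mean log2 intensity over all 12 arrays was at or above the 40th percentile of all probe sets (2.38) were tested. The log2 values of all 12 arrays were fitted with limma 3.58.1 (R 4.3.3), with 1 mean per population and the experiment letter as a block (6 residual and 5.75 prior degrees of freedom). P-values are two-sided with Benjamini-Hochberg adjustment over 13700 genes, with a threshold of 0.05, and errors are standard errors. Folds of genes near the floor of about 2 units are limited by it. The number of arrays limits the precision.

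Experiment letters are in the titles of all 4 populations. Deviations from the population means correlated within experiments at 0.0945 to 0.404 over 18 pairs, against at most 0.0822 across experiments. The lowest pair, green-only with double-negative C, lay just under 0.1. The letter was kept as a block as planned.

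The named genes were the 15 largest changes in each direction that kept 1 sign in every experiment and did not overlap between arrays, key genes of each list whatever their values, up to 4 further members per list with the largest called change, and the 5 largest changes in each direction against the other populations. Members and lists were chosen with earlier results of these data known. Promoters were RefSeq sequences, the first listed per gene. The fits were tested on simulated data. Alternatives covered the block, pseudocount, normalization, filter, probe set, intensity trend, arrays fitted, a minimum fold, and leaving out each array or experiment.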

Additional observations from a re-analysis of the deposited data

How the results depend on the processing

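With green-only set against double-negative cells, 10 settings kept the number of higher genes within 1.5 times of 1529 (1158 to 1610) and 10 kept the number of lower genes within 1.5 times of 1776 (1300 to 1910). Without the replicate block 1264 genes were higher and 1466 lower. With only the 6 arrays compared and no block, 971 were higher and 1070 lower, and with a minimum log2 fold change of 1, 339 and 174. Leaving out 1 array or 1 experiment gave 717 to 1434 higher and 758 to 1896 lower, with the lowest counts without experiment B. Against red-only cells the main counts of 412 higher and 271 lower became 250 and 143 without the block, 261 and 141 with only the 6 arrays and the block, 120 and 73 with the 6 arrays and no block, and 154 and 42 with the minimum fold. Leaving out arrays or experiments gave 80 to 392 higher and 50 to 264 lower. Against double-positive cells the main counts of 632 and 516 became 358 and 322 without the block, 401 and 315 with the 6 arrays and the block, 121 and 153 with the 6 arrays and no block, and 155 and 86 with the minimum fold. Leaving out arrays or experiments gave 172 to 522 higher and 170 to 437 lower. A minimum fold asks more of each gene by its construction. Against double-negative cells, 1194 genes were lower without green-only B and 1896 without green-only A, beside 1776 with all arrays. For the block and for the arrays left out the cause was not tested. Of 199 named genes called, 21 lost their call without the block, among them Cdh1, Etv2, Fgf10, Foxc2, Krt19, Notch1, Pecam1, Sox17, Tagln and Tie1. Without experiment B 42 lost it, among them Hand1, Otx2, Lefty1, Nos3 and Zeb1. Without experiment C 30 lost it, and 30 did with only the 6 arrays compared and no block. None that was called changed direction under any setting run. Of the 199 named genes called, 173 were called in all 6 fits that left out 1 array. Low intensities limit genes near the floor, such as Nanog in green-only cells and Pln in both populations.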
